A study of Arabidopsis thaliana with 36 samples.

Results

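Among 28775 nuclear and organelle loci counted in 36 Arabidopsis thaliana libraries, 183 genes were richest in the rosette buds of wild-type (WT) plants. The members were chosen by WT values alone: the mean CPM (1000000 times the count divided by the library total) of the 3 WT bud libraries was at least 5, and at least 4 times the mean of each other WT tissue. A further 6 loci were left out by name in the rule, whatever their values, and are in none of the gene lists used below, and the limit of 300 genes was not reached. The plants were libraries labelled quintuple mutant, libraries labelled triple mutant, both of S1 group bZIP transcription factors, and Col-0 WT. The labels name neither the mutated genes nor the alleles, so no count could be used to check them. Flowers, rosette buds, source leaves (sugar exporting) and sink leaves (sugar importing) were taken from plants grown with 16 h light and 8 h dark until flowering began, with 3 biological replicates per genotype and tissue. The question was how the genes that set WT rosette buds apart stood in the buds and flowers of both mutants.

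Rosette buds form in the axils of rosette leaves. Each holds a small shoot apex with leaf primordia, and it can stay dormant or grow out as a side branch, depending on auxin, strigolactone, cytokinin, light and sugar supply. S1 group bZIP proteins are small leucine zipper transcription factors that pair with C group bZIP proteins, bind DNA with an ACGT core, and are controlled in part by sucrose through their messenger RNA. They are known for adjusting amino acid and sugar metabolism when energy is low.

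The libraries held between 18158887 and 25124369 counts. Replicates were alike in WT and triple mutant buds and far apart in quintuple mutant buds: the median coefficient of variation of the members was 0.441 in quintuple mutant, 0.152 in triple mutant and 0.195 in WT buds. Over all loci with at least 5 CPM the medians were 0.205, 0.0702 and 0.0958 in the same groups. The highest quintuple mutant bud library had at least 4 times the lowest for 46 members, against 1 member in triple mutant and 2 in WT buds. Library 3 was the lowest of the quintuple mutant bud libraries for 99 members and library 1 for 74. Marker genes of other tissues also differed among those libraries. The summed CPM of 20 leaf photosynthesis genes was 36198, 17760.1 and 8770.3 in quintuple mutant buds, against 39075 to 46441 in triple mutant and 43999 to 58028 in WT buds. That of 13 xylem genes was 256, 327 and 659 in quintuple mutant buds, against 161 to 194 in triple mutant and 207 to 255 in WT buds. The part of these differences in the results below was not tested. In such bulk samples, fewer cells of a type and less RNA per cell cannot be told apart.

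The members lay on all 5 chromosomes, with 39, 34, 40, 27 and 43 on chromosomes 1 to 5. Of the 183, 178 were annotated as protein coding, 3 as noncoding RNA and 2 as ribosomal RNA, and 93 had a gene symbol. There were 26 members (14.2%) within 10 kb of another, in 9 clusters. The largest cluster was on chromosome 4 (TAIR10.1, chr4:11844506-11858970). Its 7 members were AT4G22485, AT4G22490, AT4G22505, AT4G22510, AT4G22513, AT4G22517 and AT4G22520. The reference annotates 6 of them as lipid-transfer-like proteins of the 2S albumin superfamily and AT4G22510 as uncharacterized. AT4G22510 lies across AT4G22513 and AT4G22517 on the opposite strand. The library kit kept the strand, and no source used here says whether counting used it. The counts of these 3 loci therefore cannot be separated with certainty. AT4G22520 overlaps AT4G22530, not a member, on the opposite strand, and its counts carry the same doubt. The second cluster, on chromosome 3 (chr3:5566083-5595912), held NSP1 and NSP4, nitrile specifier proteins that steer glucosinolate breakdown, and the jacalin lectins PBP1, JAL33 and JAL34.

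Sequences from upstream of 7 members are shown, credited to RefSeq (TAIR10.1), written in the gene's own direction and ending at the base before its annotated start. The first 5 belong to genes that fell in triple mutant buds and hold a G-box, CACGTG, the palindromic form of the ACGT core bound by S1 group bZIP proteins; the G-boxes are in capitals. The other 2 are neighbours in the chromosome 4 cluster, and the capitals mark a stretch of 22 bases that both share.
AT3G17520 chr3:6000448-6000657 (- strand): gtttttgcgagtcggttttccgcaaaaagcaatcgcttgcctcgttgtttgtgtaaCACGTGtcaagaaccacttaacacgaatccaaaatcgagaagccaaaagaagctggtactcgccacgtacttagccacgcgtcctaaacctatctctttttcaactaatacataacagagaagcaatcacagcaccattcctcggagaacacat
ERF12 chr1:9951552-9951761 (+ strand): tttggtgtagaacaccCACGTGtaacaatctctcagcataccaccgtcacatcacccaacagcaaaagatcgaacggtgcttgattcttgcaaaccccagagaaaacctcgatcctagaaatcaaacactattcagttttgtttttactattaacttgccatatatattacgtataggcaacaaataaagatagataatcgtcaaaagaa
EDA12 chr2:15104506-15104715 (+ strand): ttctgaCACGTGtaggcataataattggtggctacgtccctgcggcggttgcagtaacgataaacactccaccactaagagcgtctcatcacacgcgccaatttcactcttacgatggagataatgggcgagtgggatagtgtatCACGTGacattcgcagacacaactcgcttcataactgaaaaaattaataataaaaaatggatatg
AT1G15330 chr1:5274061-5274270 (+ strand): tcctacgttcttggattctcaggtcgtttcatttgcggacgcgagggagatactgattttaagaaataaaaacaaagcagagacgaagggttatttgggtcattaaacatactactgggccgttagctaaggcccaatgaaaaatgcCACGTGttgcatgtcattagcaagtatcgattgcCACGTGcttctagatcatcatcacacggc
AT4G36700 chr4:17300368-17300577 (- strand): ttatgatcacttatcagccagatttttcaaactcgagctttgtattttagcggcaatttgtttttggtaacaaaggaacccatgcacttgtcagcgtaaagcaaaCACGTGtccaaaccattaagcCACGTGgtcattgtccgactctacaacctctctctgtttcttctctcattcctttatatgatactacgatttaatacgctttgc
AT4G22513 chr4:11854659-11854808 (+ strand): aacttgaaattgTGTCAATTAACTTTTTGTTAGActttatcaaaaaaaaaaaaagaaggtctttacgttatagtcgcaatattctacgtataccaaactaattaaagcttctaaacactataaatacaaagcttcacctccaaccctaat
AT4G22517 chr4:11856593-11856742 (+ strand): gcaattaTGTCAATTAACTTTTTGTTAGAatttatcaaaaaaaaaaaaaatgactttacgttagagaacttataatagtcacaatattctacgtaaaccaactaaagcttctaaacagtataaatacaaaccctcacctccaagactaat

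In the 300 bases upstream of the start, 24 of 183 members (13.1%) held a G-box, against 1979 of 28008 nuclear loci (7.07%). Of the 43 members that fell in triple mutant buds, 7 (16.3%) held one, as did 2 of the 14 that rose there (14.3%). Among the 97 members that rose in quintuple mutant flowers, 15 (15.5%) held one. These sets share genes, ERF12 among them, and the shares were not compared by a test. The shorter ABA-response core ACGTG, which every G-box contains, stood on either strand upstream of 30.6% of members and 25.6% of all loci. The C-box GACGTC was found upstream of 1.64% of members and 2.60% of all loci. The TCP motif GGNCCC was found upstream of 7.65% of members and 8.13% of all loci, and the homeodomain core AATNATT upstream of 37.2% of members and 35.4% of all loci. All 5 motifs were searched on both strands. A match is only a run of letters, and whether any of the stretches is bound was not tested.

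The WT values that follow were those that chose the members, so they are a description without a test. CPM is not divided by gene length and does not rank genes by transcript number. The largest counts came from AT2G43150, a proline-rich extensin-like cell wall protein, with 1129, 1883 and 1264 CPM in the WT bud libraries and a mean of 34.4 CPM in WT flowers. EXL2, of the secreted EXORDIUM family, followed with 524, 498 and 609.8 CPM in WT buds and 76.5, 89.8 and 109 CPM in WT flowers. DYL1, also called DRM1 and widely used as a marker of bud dormancy, had 344, 296 and 402 CPM in WT buds and 35.2, 40.7 and 45.6 CPM in WT flowers. Several genes of the chromosome 4 cluster had hardly any counts in WT flowers. AT4G22485 had 183, 103 and 248 CPM in WT buds and no count in any WT flower library, which puts buds at least 3674-fold higher with a floor of 3 counts over the 3 flower libraries. AT4G22505 had 335, 305 and 619 CPM in WT buds and 3.34, 6.95 and 3.36 CPM in WT flowers. The peroxidase AT5G64110 also had no count in WT flowers and 81.1, 88.8 and 123 CPM in WT buds.

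The members included regulators of the shoot tip and of flowering. TFL1, which keeps shoot meristems vegetative, had 11.9, 12.9 and 13.9 CPM in WT buds and 0.223, 0.447 and 0.517 CPM in WT flowers. FD, the bZIP partner of the flowering signal FT, had 16.1, 18.04 and 21.3 CPM in WT buds and 0.223, 0.447 and 0.723 CPM in WT flowers. CYP78A5, a cytochrome P450 of the shoot apex that promotes organ growth, had 46.4, 54.4 and 71.9 CPM in WT buds and 0.267, 0.844 and 0.568 CPM in WT flowers. TCP1, LOB, AGL24, LFY, PAN, the growth-regulating factors GRF4, GRF7 and GRF9, the zinc finger homeodomain genes HB25 and HB33, and 6 genes of the LSH family, several of which act at organ boundaries, were also members. Of 25 listed axillary meristem and boundary genes, 22 were highest in WT buds among the 4 tissues, but only LOB passed the rule. Of the 25, 13 were over 5 CPM in WT buds. Of 15 branching and dormancy genes, 10 were highest in buds and only DYL1 passed. In the same count 13 of 21 root genes were highest in WT buds, against 0 of 20 leaf photosynthesis and 0 of 9 floral organ genes. The share over all loci is not given here. The boundary list summed to 436 CPM in WT buds, against 262 in WT flowers, 138 in WT sink leaves and 118 in WT source leaves. Pollen markers, which summed to 8137 to 8612 CPM in WT flowers, summed to 1.77 to 3.10 CPM in WT buds.

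Just inside the CPM limit stood AT5G07760 with a mean of 5.10 CPM in WT buds, and just outside it AT5G05220 with 4.84. Just inside the ratio limit stood PLAT2, whose buds were 4.01 times the next tissue, and just outside it AT3G60490 with 3.99 times. For 55 members some 50-base stretch of the gene also occurs elsewhere in the nuclear genome, and 4 had over 50% of their stretches elsewhere: the ribosomal RNA loci AT2G01020 and AT3G41979 and the AT14A pair AT3G28290 and AT3G28300. Their counts could have been shared with copies and are uncertain. In all 31 members overlap an annotated locus of the opposite strand, PYK10, JAL34, GSTF12, NRT1.8 and AT3G14360 among them, and their counts carry the same doubt about strand.

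**Figure D1:**
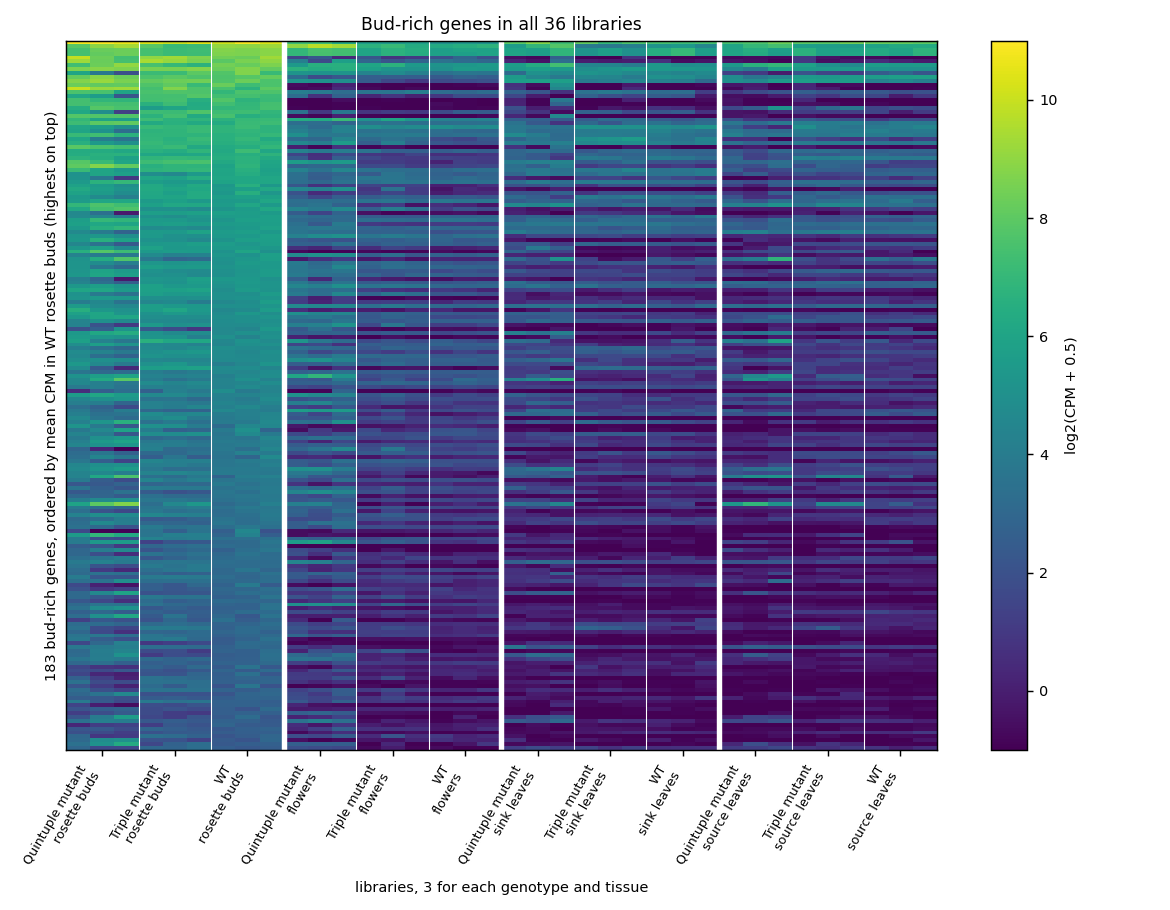
The map shows log2(CPM + 0.5) of the 183 members (rows, ordered by mean CPM in WT rosette buds) in all 36 libraries (columns, 3 per genotype and tissue). The 9 bud columns on the left are brighter than the rest in all 3 genotypes, and the quintuple mutant flower columns are brighter than those of triple mutant and WT flowers.

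The same rule applied to the triple mutant libraries alone was passed by 147 of 28775 loci (0.511%), of which 122 were among the 183 members (66.7% of the members and 83.0% of the loci passing). Applied to the quintuple mutant libraries it was passed by 238 loci (0.827%), of which 77 were members (42.1% of the members and 32.4% of the loci passing). The flower limit separated the mutants most: 87 members had at least 4 times as much in buds as in flowers of the quintuple mutant, and 154 did in the triple mutant. For sink leaves the same counts were 151 in the quintuple and 166 in the triple mutant. Buds were above flowers for 164 members in the quintuple mutant and 181 in the triple mutant.

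Buds were set against flowers of the same mutant with edgeR's quasi-likelihood test and Benjamini-Hochberg adjustment over all genes tested, and no WT library that chose the members entered these fits. In the triple mutant, 178 of 183 tested members were higher in buds and none was lower at an adjusted p under 0.05; over all 21443 genes tested 27.8% were higher and 32.8% lower. The count of lower members was also 0 with DESeq2, and 179 members had an unadjusted p under 0.05 in either direction; without triple mutant flower library 1 a single member was called lower. A member with few flower counts could enter the test only through its buds, where it is high. Of the 127 members that the triple mutant flowers alone brought into the test, 122 were higher in buds, with a median log2 fold change of 2.42; the 56 that entered only with bud counts were all higher. In the quintuple mutant, 90 of 180 tested members were higher in buds and 4 lower, where 5.95% of all genes were called higher and 11% lower. Of the 150 that the quintuple mutant flowers alone brought into the test, 66 were higher and 4 lower, with a median of 1.20, and of the 30 that entered only with bud counts, 24 were higher. The lower members were 9 without quintuple mutant bud library 1, and 2 without quintuple mutant bud library 2 or flower library 1 or 2. The 4 members lower in quintuple mutant buds than in quintuple mutant flowers were ERF12, a repressor-type ethylene response factor (-1.02), the chitinase family gene AT2G43620 (-1.98), EDA12 (-1.87) and the kinase gene AT5G64910 (-1.67). ERF12 had 19.8, 14.4 and 13.4 CPM in quintuple mutant buds and 24.6, 34.7 and 29.3 CPM in quintuple mutant flowers (adjusted p = 0.0276, edgeR), with no overlap, the reverse of its order in WT.

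The chromosome 4 cluster was bud-rich in both mutants too. In each mutant every bud value of all 7 genes was above every flower value. Of the 7, 5 had at most 25 counts over the 3 quintuple mutant flower libraries. Over the 3 triple mutant flower libraries these 5 had at most 5 counts. They entered the test of buds against flowers only through buds, where they are high, so their calls are left out. Of the other two, AT4G22505 was called higher in buds of both mutants and AT4G22490 in those of the triple mutant. AT4G22513, whose upstream stretch is printed above, had 170.5, 118 and 113 CPM in quintuple mutant buds, 162, 175 and 91.0 in triple mutant buds and 210.4, 108 and 138 in WT buds. The neighbour AT4G22517 had 222, 212 and 216 CPM in quintuple mutant buds, 105, 165 and 78.7 in triple mutant buds and 181, 91.0 and 108 in WT buds. None of the 7 passed the test between genotypes in buds, in either mutant. In the quintuple mutant AT4G22490 had 605, 307 and 176 CPM in its buds and 17.5, 2.75 and 54.9 CPM in its flowers (adjusted p = 0.0573, edgeR).

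The comparisons of each mutant with WT use the WT bud and flower libraries that also chose the members, so their balance of rises and falls is not independent of the rule; both mutants were also compared with the same WT libraries. In triple mutant buds, 14 of 183 members rose and 43 fell against WT buds, where 7.62% of 20010 genes tested rose and 8.86% fell (7.65% and 23.5% of the members). The median log2 fold change of the members was -0.08, against -0.01 over all genes. With 1 spread estimated over all 9 bud libraries, quintuple mutant included, none of these calls held. Of the 14 rises 2 were at least 2-fold, and of the 43 falls 19 were. Without triple mutant bud library 2 the rises were 9, and without WT bud library 2 they were 22.

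The largest fall in triple mutant buds was that of AT3G17520, a late embryogenesis abundant protein gene of the kind made during drying, with 4.45, 2.84 and 1.38 CPM in triple mutant buds and 24.3, 21.8 and 41.3 CPM in WT buds (log2 fold change -3.40, SE 0.36, adjusted p = 0.00236, edgeR). Every triple mutant value was under every WT value. AT4G38340, an RWP-RK family regulator related to the nitrate-response factors, had 13.4, 7.12 and 8.21 CPM in triple mutant buds and 33.7, 39.9 and 52.9 CPM in WT buds (log2 fold change -2.20, SE 0.23, adjusted p = 0.00236, edgeR). NRT1.8, a nitrate transporter that takes nitrate out of the xylem, had 2.00, 4.03 and 4.37 CPM in triple mutant buds and 7.87, 8.24 and 12.4 CPM in WT buds (log2 fold change -1.50, SE 0.29, adjusted p = 0.0116, edgeR). The groups did not overlap for either gene. LAC3, a laccase, had a log2 fold change of -1.96, the peroxidase AT4G36430 had a log2 fold change of -1.58, and the arabinogalactan protein gene AGP7 one of -1.18.

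DYL1, the dormancy marker, was among the falls. It had 179, 130.4 and 105 CPM in triple mutant buds and 344, 296 and 402 CPM in WT buds (log2 fold change -1.39, SE 0.18, adjusted p = 0.00392, edgeR), so all 3 triple mutant values were under the lowest WT value. EXL2 had 235, 134 and 146 CPM in triple mutant buds and 524, 498 and 609.8 CPM in WT buds (log2 fold change -1.73, SE 0.19, adjusted p = 0.00270, edgeR), again without overlap. Of the 15 listed branching and dormancy genes, none rose and 8 fell in triple mutant buds. Of the 31 tested abscisic acid and dehydration genes, none of them a member, 21 fell and none rose, with a median log2 fold change of -1.12. Of 20 cell cycle genes, none a member, 16 rose and none fell in triple mutant buds, with a median of 0.70. DR4, named for its repression by drought, had a log2 fold change of -1.17, and the ribosomal RNA loci AT2G01020 and AT3G41979 had -1.52 and -1.51, with the copy number doubt given above.

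Genes with G-boxes upstream included 4 more of these falls. EDA12, a gene named for embryo sac arrest, had 4.90, 3.43 and 4.32 CPM in triple mutant buds and 12.8, 10.4 and 15.6 CPM in WT buds (log2 fold change -1.67, SE 0.18, adjusted p = 0.00254, edgeR). The CBS domain gene AT1G15330 had 2.80, 3.14 and 1.61 CPM in triple mutant buds and 6.55, 5.98 and 9.59 CPM in WT buds (log2 fold change -1.61). The cupin family gene AT4G36700 had 2.80, 1.79 and 1.52 CPM in triple mutant buds and 5.61, 6.38 and 5.90 CPM in WT buds (log2 fold change -1.62). ERF12 had 26.1, 18.9 and 19.7 CPM in triple mutant buds and 39.2, 34.4 and 53.8 CPM in WT buds (log2 fold change -1.04). For all 4 the triple mutant values lay under the WT values.

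Among the 19 shoot tip and flowering regulators, a group assembled after the values were seen, 3 fell in triple mutant buds and none rose. They were TFL1 (-0.56), LOB (-0.68) and LFY (-0.75, all log2), which sets floral meristem identity. TFL1 had 10.4, 8.46 and 8.50 CPM in triple mutant buds and 11.9, 12.9 and 13.9 CPM in WT buds (adjusted p = 0.0167, edgeR). The triple mutant values of TFL1 were all under those of WT. Of the 6 LSH genes, LSH1 and LSH5 fell, with log2 fold changes of -0.55 and -0.53. The 8 anthocyanin genes gave log2 fold changes near 0 in triple mutant buds, with a median of 0.02 and no call.

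The rises in triple mutant buds were led by ARD3, an acireductone dioxygenase of methionine salvage, with 98.4, 71.6 and 69.8 CPM in triple mutant buds and 22.8, 34.4 and 27.4 CPM in WT buds (log2 fold change 1.44, SE 0.17, adjusted p = 0.00365, edgeR). AT1G54010, a GDSL lipase-like gene next to GLL22, had 147, 177 and 185 CPM in triple mutant buds and 76.1, 105 and 65.3 CPM in WT buds (log2 fold change 0.98, SE 0.18, adjusted p = 0.0109, edgeR). NAI2, needed to form ER bodies, had 56.2, 55.9 and 62.0 CPM in triple mutant buds and 29.3, 46.2 and 35.3 CPM in WT buds (log2 fold change 0.59). The groups did not overlap for these 3 genes. CYCD6;1, a D-type cyclin, had a log2 fold change of 0.68, and the noncoding RNA AT1G04425 one of 0.98.

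**Figure D2:**
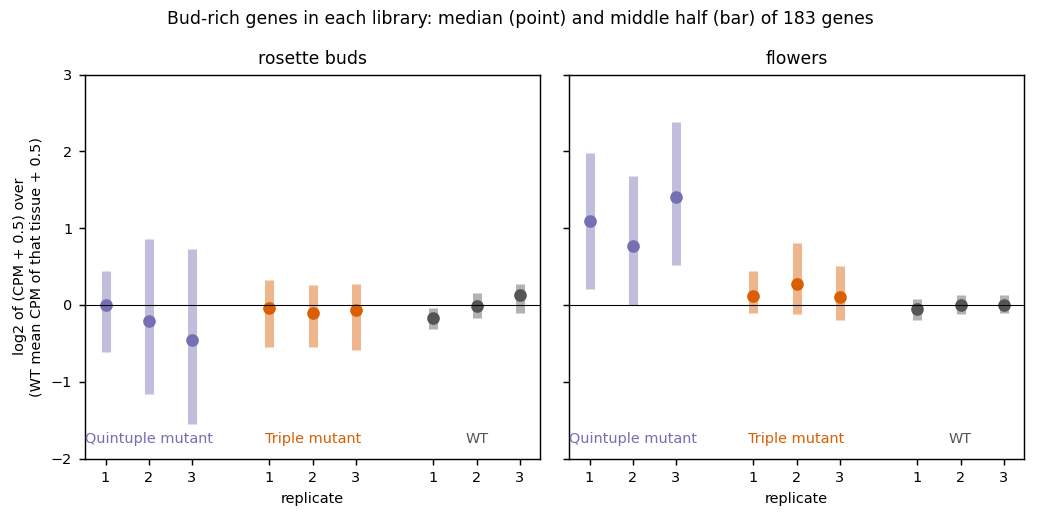
For each bud library (left) and flower library (right) the point is the median and the bar the middle 50% of log2 of (CPM + 0.5) over (WT mean CPM of that tissue + 0.5) for the 183 members. The quintuple mutant bud medians run between -0.45 and -0.00 with the longest bars, while the quintuple mutant flower medians lie between 0.76 and 1.41, above all triple mutant and WT flower medians.

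In quintuple mutant buds, 4 members rose and 5 fell against WT buds, where 1.7% of 20417 genes tested rose and 0.568% fell; 86 members and 6050 of all genes had an unadjusted p under 0.05. DESeq2 called 31 rises and 35 falls. Without quintuple mutant bud library 1, edgeR called 47 rises and 74 falls. Without library 3 it called no rise and 2 falls, and without library 2 or any 1 WT bud library it called neither. The summed CPM of all members was 12771, 13945 and 12538 in quintuple mutant buds, against 10331, 10238 and 9970.3 in triple mutant and 9995, 11742 and 11529 in WT buds. The quintuple mutant sums lay above the others, but a sum is carried by the members with the most counts. Against WT buds the mean was higher for 85 members and lower for 98, and the median log2 fold change of the members was -0.20.

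The rises included 3 of the 11 members of the ER body, jacalin and nitrile specifier group, which was assembled after the values were seen. ER bodies are compartments of Brassicaceae cells that store beta-glucosidases used in defence. PYK10, the main such beta-glucosidase, had 263, 439 and 280.3 CPM in quintuple mutant buds, 95.7, 114 and 109.8 in triple mutant buds and 59.2, 111 and 62.2 in WT buds. All quintuple mutant values were above all others (against WT log2 fold change 1.96, SE 0.34, adjusted p = 0.0486, edgeR). JAL34, a jacalin lectin, had 123, 197 and 161 CPM in quintuple mutant buds, 56.1, 73.1 and 72.7 in triple mutant buds and 47.0, 67.2 and 43.0 in WT buds (against WT log2 fold change 1.49, SE 0.26, adjusted p = 0.0486, edgeR). The jacalin family gene AT1G33790 had 46.8, 67.2 and 47.7 CPM in quintuple mutant buds, 24.7, 24.9 and 19.3 in triple mutant buds and 19.1, 19.9 and 23.2 in WT buds (against WT log2 fold change 1.26, SE 0.18, adjusted p = 0.0406, edgeR). Neither lectin gene overlapped between quintuple mutant and WT buds. JAL22 and JAL33 were above WT in every quintuple mutant library as well, with 45.6, 117 and 77.0 CPM of JAL33 in quintuple mutant buds and 7.09, 19.6 and 5.44 CPM in WT buds, but did not pass (adjusted p = 0.0615 for JAL33 and 0.0693 for JAL22, edgeR). No ER body call held when quintuple mutant library 2 or 3, or any 1 WT library, was left out.

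OSM34, an osmotin of the thaumatin family, was the other rise. It had 61.7, 250.4 and 420.2 CPM in quintuple mutant buds, 9.49, 23.7 and 40.0 in triple mutant buds and 8.29, 10.8 and 18.5 in WT buds (against WT log2 fold change 4.18, SE 0.73, adjusted p = 0.0486, edgeR). Its quintuple mutant values spread widely but all stood above the other libraries. Beside these rises, the summed CPM of 21 root genes, PYK10 among them, was 406, 741 and 676 in quintuple mutant buds, 162 to 212 in triple mutant and 202 to 289.6 in WT buds. Without PYK10 the sum was 143, 302 and 396 in quintuple mutant buds, 63.5 to 98.0 in triple mutant and 122 to 227 in WT buds, so library 1 of the quintuple mutant was then within the WT range. Of 6 tested root genes PYK10 alone rose, and EXP7, EXP18, PLT1 and PLT2 had no count in quintuple mutant buds. In WT buds CASP5, EXP18, PLT1 and PLT2 had no count, and in triple mutant buds CASP5, PLT1 and PLT2 had none. The sum of 11 suberin genes was 83.3, 130.5 and 262 in quintuple mutant buds, 74.3 to 85.6 in triple mutant and 74.0 to 93.7 in WT buds, with none of 10 tested called. Their part in the rises was not tested.

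The 5 falls in quintuple mutant buds were ERF12, LFY, the exostosin family gene AT1G68470, the alpha/beta-hydrolase gene AT3G14360 and the glycosyltransferase gene AT5G38010, and each of the 5 had also fallen in triple mutant buds against the same WT libraries. LFY had 3.60, 1.44 and 2.04 CPM in quintuple mutant buds, 5.95, 4.33 and 5.27 in triple mutant buds and 7.75, 7.62 and 9.82 in WT buds (quintuple against WT log2 fold change -1.94, SE 0.35, adjusted p = 0.0497, edgeR). Quintuple mutant values were the lowest of the 3 genotypes and WT values the highest, without overlap. ERF12 had 19.8, 14.4 and 13.4 CPM in quintuple mutant buds, against 39.2, 34.4 and 53.8 in WT buds (log2 fold change -1.54, SE 0.22, adjusted p = 0.0401, edgeR), and no value overlapped. AT1G68470 had 24.8, 21.9 and 16.4 CPM in quintuple mutant buds and 47.4, 48.5 and 54.4 CPM in WT buds (log2 fold change -1.37). The other 2 had log2 fold changes of -1.45 for AT3G14360 and -1.47 for AT5G38010. For LFY in triple mutant buds the log2 fold change was -0.75 with an adjusted p of 0.0176 (edgeR).

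The 8 anthocyanin genes, also grouped after the values were seen, were all lower in every quintuple mutant bud library than in every WT or triple mutant one, yet none passed the test. Of all genes tested, 10.8% were under WT in this way and 23.4% under the triple mutant. DFR, which makes leucoanthocyanidins, had 73.0, 49.4 and 3.98 CPM in quintuple mutant buds, 169, 170.3 and 220.0 in triple mutant buds and 158, 171 and 145 in WT buds (quintuple against WT log2 fold change -2.03, SE 0.85, adjusted p = 0.169, edgeR). LDOX, the next enzyme, had 70.0, 30.2 and 1.94 CPM in quintuple mutant buds, 149, 147 and 209 in triple mutant buds and 148, 156 and 118 in WT buds. UF3GT, a glycosyltransferase of anthocyanins, had 17.7, 7.51 and 0.398 CPM in quintuple mutant buds, 38.5, 36.2 and 53.6 in triple mutant buds and 41.6, 41.6 and 33.0 in WT buds. Among the quintuple mutant bud libraries, library 1 was highest and library 3 lowest for all 8 genes, and library 1 was still under the lowest WT value. GSTF12, which brings anthocyanins to the vacuole, AT5MAT, which malonylates them, the anthocyanin glucosyltransferase gene AT4G14090 and the acyltransferase genes AT1G03495 and AT1G03940 had log2 fold changes between -2.27 and -1.72. The adjusted p of the 8 ran between 0.0742 and 0.191 with edgeR, DESeq2 called 5 of them lower, and edgeR called all 8 lower without quintuple mutant library 1. The summed CPM of leaf photosynthesis genes, given above, was also highest in library 1 and lowest in library 3 of these buds, and its part in this was not tested.

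**Figure D3:**
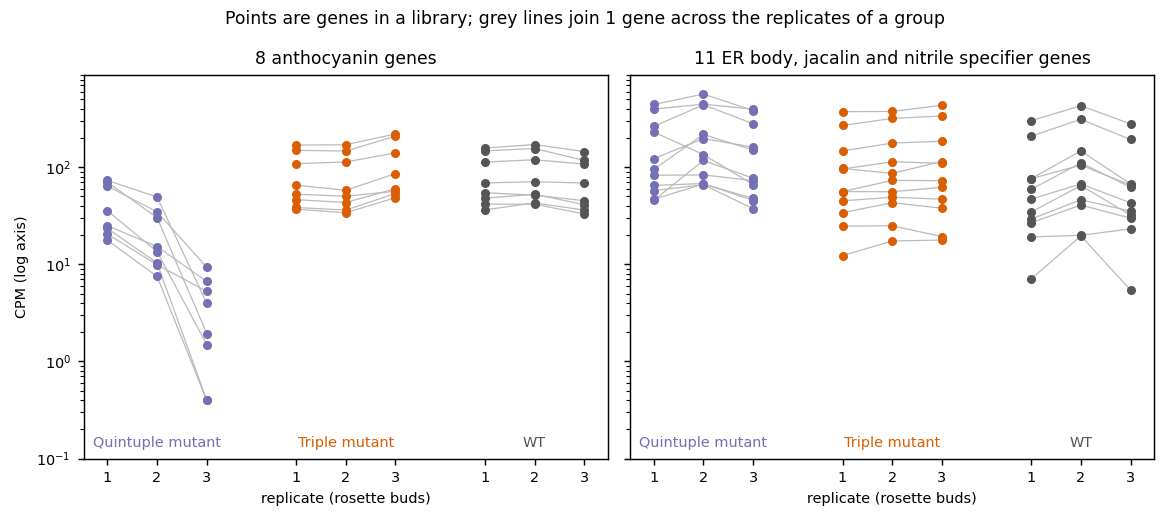
Each point is the CPM (log axis) of a gene in a bud library of the quintuple mutant, triple mutant or WT, and grey lines join a gene across the replicates of a group. The 8 anthocyanin genes (left) reach at most 73.0 CPM in the quintuple mutant and are lowest in its library 3, while most of the 11 ER body, jacalin and nitrile specifier genes (right) are highest in quintuple mutant library 2.

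Against triple mutant buds, with no WT library in the fit, 23 members were higher and 2 lower in quintuple mutant buds, where 6.96% of 20262 genes were higher and 0.706% lower. The median log2 fold change of the members was -0.13. DESeq2 called 63 higher and 39 lower; edgeR called 72 and 78 without quintuple mutant bud library 1, and none without any other single library. The 23 included 5 of the ER body group, with PYK10 at 1.57, JAL33 at 2.28 and JAL22 at 1.66, and 3 of the 8 class III peroxidases, AT4G36430, AT2G18150 and AT5G58390. AT4G38340 had 34.9, 81.9 and 206 CPM in quintuple mutant buds, against 13.4, 7.12 and 8.21 in triple mutant buds (log2 fold change 3.44, SE 0.68, adjusted p = 0.0455, edgeR). NRT1.8 had 15.7, 41.6 and 48.1 CPM in quintuple mutant buds, against 2.00, 4.03 and 4.37 in triple mutant buds (log2 fold change 3.28, SE 0.52, adjusted p = 0.0455, edgeR). Both were without overlap. Of the 43 members that fell in triple mutant buds, 10 were among the 23. The 2 members lower in quintuple than triple mutant buds were PLAT2, a PLAT domain protein, and the uncharacterized AT4G14650, with log2 fold changes of -1.39 and -2.15. Neither DYL1, at 162, 318 and 538 CPM in quintuple mutant buds, nor EXL2 passed this test (adjusted p = 0.0880 and 0.0683, edgeR), and the DYL1 groups overlapped.

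In triple mutant flowers, 142 of the 183 members had enough counts to be tested; 32 rose and 8 fell against WT flowers, where 11% of 21476 genes tested rose and 15.6% fell. Of the 122 members that WT flowers alone brought into the test, 25 rose and 8 fell, with a median log2 fold change of 0.20. The other 20 entered only with counts from triple mutant flowers, so their 7 rises are given as levels without a p. Without WT flower library 1 the rises were 17 in all, and without triple mutant flower library 3 the falls were 3. AT1G15330 had 2.32, 5.71 and 3.55 CPM in triple mutant flowers and 0.0446, 0 and 0.258 CPM in WT flowers and was one of the 7, with 6 counts over the 3 WT flower libraries. CYP78A5, another of the 7, had 1.32, 10.9 and 1.67 CPM in triple mutant flowers and 0.267, 0.844 and 0.568 CPM in WT flowers. Its 3 triple mutant values all stood above WT, but library 2 alone was several times the others. Library 2 of triple mutant flowers had the highest summed CPM of the members, 1286, against 983 and 974 in the other triple mutant flower libraries.

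Of the 13 shoot tip and flowering regulators that WT flowers alone brought into the test, 3 rose in triple mutant flowers and none fell: HB25 (1.25), HB33 (1.22) and JKD (0.57, all log2 fold changes). Of the 4 that entered only with triple mutant counts, CYP78A5 and TCP1 were called higher. TCP1 belongs to the TCP family of growth regulators, and HB25 and HB33 are zinc finger homeodomain proteins. LSH4 of the LSH family rose, with a log2 fold change of 0.39, and LSH5, which entered only with triple mutant counts, had 1.09, 1.82 and 1.62 CPM in triple mutant flowers and 0.312, 0.546 and 0.827 CPM in WT flowers. NRT1.8 had 4.19, 5.81 and 3.97 CPM in triple mutant flowers and 1.29, 1.14 and 2.17 CPM in WT flowers (log2 fold change 1.51). DYL1 had 65.9, 104 and 44.6 CPM in triple mutant flowers and 35.2, 40.7 and 45.6 CPM in WT flowers (log2 fold change 0.72, SE 0.24, adjusted p = 0.0484, edgeR), and the groups overlapped. The falls included DFR (-1.55), LDOX (-1.65), TTG2, a WRKY factor of trichomes and seed coat pigment (-1.86), SUS4, a sucrose synthase (-1.36), and AT4G22490 of the chromosome 4 cluster (-0.74). DFR had 0.729, 1.31 and 0.574 CPM in triple mutant flowers and 1.43, 2.93 and 2.89 CPM in WT flowers (adjusted p = 0.0142, edgeR), without overlap.

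Members rose most often in quintuple mutant flowers. Of 160 tested, 97 rose and 7 fell against WT flowers, where 19.7% of 21756 genes rose and 18.8% fell, with a median log2 fold change of 0.01 over all genes. Of the 122 members that WT flowers alone brought into the test, 69 rose and 7 fell, with a median of 1.13. The count of falls over all members was 12 without quintuple mutant flower library 3, 4 without library 1 or WT flower library 2, and 2 without WT flower library 1. The other 38 entered only with counts from quintuple mutant flowers, 28 of them were called higher, and those named are given as levels without a p. The summed CPM of the members was 2676, 3019.8 and 2981 in quintuple mutant flowers, against 767, 824 and 846 in WT flowers.

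The flowers themselves differed in their markers. Leaf photosynthesis genes summed to 35286 to 64479 CPM in quintuple mutant flowers and 23494 to 26305 in WT flowers, and 12 of 20 rose. Tapetum genes summed to 252 to 476 CPM in quintuple mutant flowers and 25.3 to 62.9 in WT flowers, and 8 of 9 rose. Pollen genes summed to 426 to 2015 CPM in quintuple mutant flowers and 8137 to 8612 in WT flowers, and all 5 fell. Floral organ genes summed to 267 to 393 CPM in quintuple mutant flowers and 605 to 609 in WT flowers, and 6 of 9 fell. No gene of these 4 lists was without counts in quintuple mutant or WT flowers. The part of these shifts in the rises of the members was not tested.

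Of the 13 shoot tip and flowering regulators that WT flowers alone brought into the test, 9 rose in quintuple mutant flowers and 1 fell, with a median log2 fold change of 1.72. Of the 6 that entered only with quintuple mutant counts, 4 were called higher, CYP78A5, TFL1 and FD among them. CYP78A5 had 23.0, 19.1 and 32.1 CPM in quintuple mutant flowers and 0.267, 0.844 and 0.568 CPM in WT flowers. TFL1 had 3.51, 2.48 and 6.54 CPM in quintuple mutant flowers and 0.223, 0.447 and 0.517 CPM in WT flowers, where it had 24 counts in all. FD had 5.24, 2.37 and 8.51 CPM in quintuple mutant flowers and 0.223, 0.447 and 0.723 CPM in WT flowers. All quintuple mutant values of these 3 genes were above those of WT. AGL24, a MADS box promoter of flowering, had 10.2, 4.68 and 14.2 CPM in quintuple mutant flowers and 1.60, 1.69 and 1.55 CPM in WT flowers (log2 fold change 2.50). LFY had 3.00, 3.85 and 9.42 CPM in quintuple mutant flowers and 2.05, 0.795 and 1.24 CPM in WT flowers (log2 fold change 1.91, SE 0.54, adjusted p = 0.0286, edgeR), the opposite direction to buds and again without overlap. The fall was LBD25, a LOB domain gene, with 2.39, 2.70 and 1.11 CPM in quintuple mutant flowers and 6.87, 5.51 and 6.15 CPM in WT flowers (log2 fold change -1.64).

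**Figure D4:**
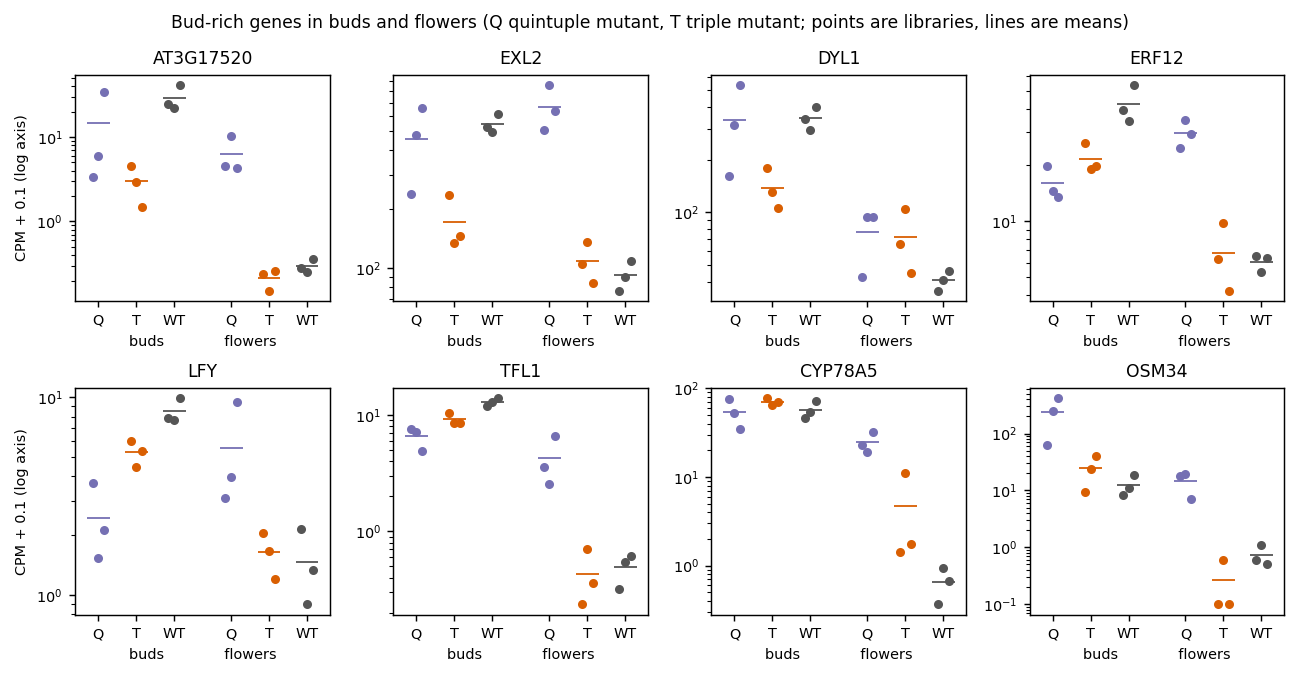
CPM + 0.1 (log axis) of 8 members in each library of buds (left of each panel) and flowers (right), in the order quintuple mutant, triple mutant, WT, with lines at the means. Among the bud groups the means of EXL2 and DYL1 are lowest in the triple mutant and those of ERF12 and LFY in the quintuple mutant, and all but DYL1 have every quintuple mutant flower value above every WT flower value.

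All 8 genes of the ER body, jacalin and nitrile specifier group that WT flowers alone brought into the test rose in quintuple mutant flowers, with a median log2 fold change of 2.71, and JAL34, which entered only with quintuple mutant counts, was also called higher. PBP1, a jacalin lectin that binds PYK10, had 36.4, 34.1 and 31.3 CPM in quintuple mutant flowers and 2.85, 3.03 and 3.41 CPM in WT flowers (log2 fold change 3.38, SE 0.14, adjusted p = 4.37e-05, edgeR). AT1G54010 had 50.8, 37.8 and 45.9 CPM in quintuple mutant flowers and 0.624, 1.94 and 1.60 CPM in WT flowers (log2 fold change 4.96, SE 0.34, adjusted p = 2.43e-04, edgeR). PYK10 had 6.35, 7.49 and 7.85 CPM in quintuple mutant flowers and 1.92, 2.24 and 2.58 CPM in WT flowers (log2 fold change 1.62, SE 0.20, adjusted p = 0.00138, edgeR). None of the 3 overlapped. JAL22 and JAL33, the members not tested there, averaged 0.0508 CPM and 0.245 CPM in quintuple mutant flowers.

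Of the 6 anthocyanin genes that WT flowers alone brought into the test, 3 rose in quintuple mutant flowers and none fell. AT5MAT and UF3GT entered only with quintuple mutant counts and were called higher; AT5MAT had 5.08, 2.20 and 6.64 CPM in quintuple mutant flowers and 0.178, 0.248 and 0.103 CPM in WT flowers, 11 counts in all. DFR, at 9.05, 1.101 and 6.18 CPM in quintuple mutant flowers and 1.43, 2.93 and 2.89 in WT flowers, did not pass (adjusted p = 0.229, edgeR), its library 2 being under the WT values and the others above. OSM34 had 17.9, 19.4 and 7.04 CPM in quintuple mutant flowers and 0.490, 0.994 and 0.413 CPM in WT flowers, and it too entered only with quintuple mutant counts. EXL2 had 506, 863 and 636 CPM in quintuple mutant flowers and 76.5, 89.8 and 109 CPM in WT flowers (log2 fold change 2.81, SE 0.26, adjusted p = 5.08e-04, edgeR). Neither overlapped. Of the 5 class III peroxidases that WT flowers alone brought into the test 2 rose and PER64, a peroxidase of lignified barriers in roots, fell (-2.33). AT2G18150 and AT2G38380, which had no count in WT flowers and so entered only through the mutant, had 2.69, 1.54 and 5.27 CPM and 2.95, 1.98 and 1.01 CPM in quintuple mutant flowers.

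The other falls in quintuple mutant flowers were AT2G28780 (-2.97), SUS4 (-1.81), PLAT2 (-1.07), HIPP20, a heavy metal binding protein (-0.53), and ADH1, alcohol dehydrogenase (-0.44, all log2 fold changes). SUS4 had 0.508, 0.496 and 0.507 CPM in quintuple mutant flowers and 1.60, 1.24 and 2.27 CPM in WT flowers (adjusted p = 0.00585, edgeR). SUS4 and ADH1 are known as genes induced by low oxygen. All 5 had quintuple mutant values under the WT values.

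**Figure D5:**
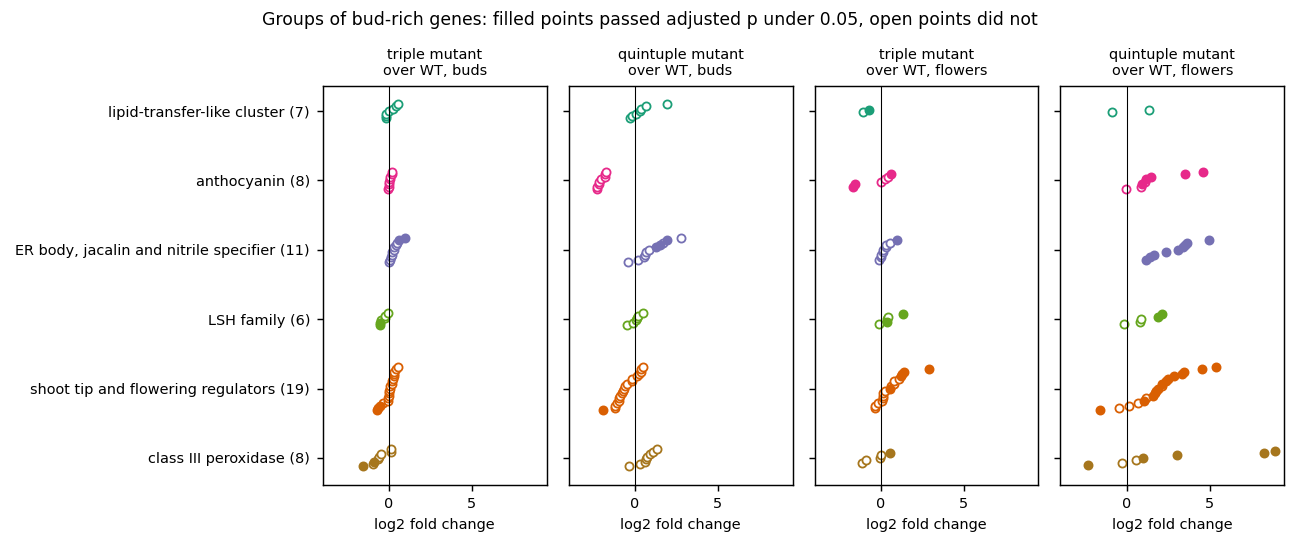
Points are the log2 fold changes of members in 6 groups (rows) in 4 comparisons with WT (panels); filled points passed an adjusted p under 0.05. In quintuple mutant flowers (right) all 9 points of the ER body group and 13 of 19 of the regulators are filled to the right of 0, of which 1 and 4 entered the test only with quintuple mutant counts, while in quintuple mutant buds the 8 anthocyanin points lie near -2 and are open.

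Quintuple mutant flowers were last set against triple mutant flowers, a comparison without WT libraries. Of 159 members tested, 78 were higher and 2 lower in the quintuple mutant, where 14.5% of 21611 genes were higher and 8.63% lower. Of the 126 that triple mutant flowers alone brought into the test, 54 were higher and 2 lower, with a median log2 fold change of 0.92; of the 33 that entered only with quintuple mutant counts, 24 were higher. Without triple mutant flower library 1 or 3 the higher members were 49. All 8 ER body genes and 7 of the 17 regulators that triple mutant flowers alone brought in were higher. TFL1, which entered only with quintuple mutant counts, had 3.51, 2.48 and 6.54 CPM in quintuple mutant flowers and 0.137, 0.606 and 0.261 CPM in triple mutant flowers. AGL24 had 10.2, 4.68 and 14.2 CPM in quintuple mutant flowers and 1.55, 1.31 and 1.20 CPM in triple mutant flowers (log2 fold change 2.87, SE 0.41, adjusted p = 0.00500, edgeR). Neither gene overlapped. CYP78A5, at 1.32, 10.9 and 1.67 CPM in triple mutant flowers, did not pass (log2 fold change 2.49, adjusted p = 0.0542, edgeR). The 2 lower members were LBD25 (-1.29) and AT3G61840 (-2.51).

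The lists of known genes were counted in the same 4 comparisons with WT. A listed gene with few WT counts could enter a test only through the mutant, where it is high. TFL1 and FD did so in quintuple mutant flowers. The list counts are not split by this here, so their balance of rises and falls in flowers is a description only. The shares of all genes tested that rose and fell were 7.62% and 8.86% in triple mutant buds, 1.7% and 0.568% in quintuple mutant buds, 11% and 15.6% in triple mutant flowers, and 19.7% and 18.8% in quintuple mutant flowers. Axillary meristem and boundary genes had no rise and 2 falls among 22 tested in triple mutant buds, none of either in quintuple mutant buds, 5 rises and 2 falls of 19 in triple mutant flowers, and 11 rises and 2 falls of 22 in quintuple mutant flowers. Flowering regulators, TFL1, LFY, AGL24 and FD among them, had no rise and 3 falls of 14 in triple mutant buds, no rise and 2 falls of 15 in quintuple mutant buds, 5 rises and 2 falls of 15 in triple mutant flowers, and 10 rises and 1 fall of 16 in quintuple mutant flowers. Branching and dormancy genes had no call in quintuple mutant buds, 5 rises and 1 fall of 14 in triple mutant flowers, and 8 rises and 1 fall of 15 in quintuple mutant flowers. Cytokinin genes, which include the member CKX1, a cytokinin-degrading oxidase, had 6 rises of 16 in triple mutant buds, no call in quintuple mutant buds, 6 rises and 1 fall of 16 in triple mutant flowers, and 4 rises and 1 fall of 17 in quintuple mutant flowers, the last near the share of rises over all genes. CKX1 had 42.1, 69.6 and 86.5 CPM in quintuple mutant buds, 34.3, 25.4 and 27.6 in triple mutant buds and 24.3, 31.6 and 31.2 in WT buds, and passed in neither mutant. Gibberellin genes had 1 fall of 6 in triple mutant buds, no call in quintuple mutant buds, 2 falls of 8 in triple mutant flowers, and 1 rise and 3 falls of 7 in quintuple mutant flowers. Abscisic acid and dehydration genes had 5 falls of 31 in quintuple mutant buds, 3 rises and 14 falls of 29 in triple mutant flowers, and 12 rises and 3 falls of 30 in quintuple mutant flowers.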

How the data were processed

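The authors deposited raw counts for 28775 loci, as the file headers call them, in 8 tables, 1 for each mutant and tissue with its 3 WT libraries. The labels' protocols give 500 ng of total RNA, poly-A selection and a strand-keeping kit. Tools in the submitters' processing notes, without a role, are edgeR, DESeq2, Salmon (0.7.2), R (3.5.1) and SAMtools, with the TAIR10 build. The steps by which reads became counts are not given in the sources used here. Totals (18158887 to 24256840 in buds and flowers) limit precision for genes with few counts, and floors of 3 counts cover counting error only.

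CPM was computed from the column totals. Each of 8 comparisons was fitted on its 6 libraries with edgeR 4.0.16 (limma 3.58.1, R 4.3.3): filterByExpr (about 10 counts in each of 3 libraries), TMM, a quasi-likelihood F test and Benjamini-Hochberg adjustment over all genes tested, threshold 0.05. The SE is the log2 fold change divided by the square root of F. DESeq2 1.42.0, RLE and upper quartile scaling, no filter, no organelle genes, a replicate block, all 9 libraries of a tissue, single libraries left out and other member rules were alternatives. Summaries and figures used Python 3.11.15 with matplotlib 3.10.9, scipy 1.17.1, pandas 2.3.3 and numpy 2.4.6. Symbols, products and the 300 bases upstream came from RefSeq TAIR10.1, in which 28009 loci matched. The members and the 14 gene lists were chosen with earlier results of these data known, and the 6 groups of members after their values were seen. Genes named were the listed ones, the highest and sharpest in WT buds, the 8 largest rises and falls without overlap in each comparison, those called in both mutants, those at the limits of the rule and those of families; others were chosen after their values were seen. On simulated counts for triple mutant buds against WT, with a spread (dispersion) of 0.0161, the test recovered 100 of 100 genes changed 2-fold. For quintuple mutant flowers against WT, with a dispersion of 0.0462, it recovered 60 of 100 at 2-fold and 100 of 100 at 4-fold. In WT buds the median coefficient of variation was 0.195 for the members and 0.0958 over all loci with at least 5 CPM. Recovery at the spread of the members, or in quintuple mutant buds, was not tested. No replicates were copies: the lowest chi-square per locus between replicates was 5.66. The labels call replicates biological, without naming plants, so p values measure the spread between these samples.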

Additional observations from a re-analysis of the deposited data

Results flagged for a closer look

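For 7 members the triple mutant passed the test against WT in both tissues, lower in buds and higher in flowers, with no overlap in either. Members without a call in both tissues were not counted, even where the libraries did not overlap. The difference between the tissues was not tested. The log2 fold changes of triple mutant over WT were -1.51 in buds and 0.46 in flowers for AT3G41979, a ribosomal RNA locus with identical copies, and -0.82 in buds and 1.84 in flowers for AT4G30250, an ATPase gene. They were -0.79 in buds and 0.55 in flowers for the noncoding RNA AT1G15405, and -0.75 in buds and 1.35 in flowers for AT1G13670, an uncharacterized gene. NRT1.8, the nitrate transporter, had -1.50 in buds and 1.51 in flowers, and LSH5 had -0.53 in buds and 1.34 in flowers. AT1G15330, the CBS domain gene with 2 G-boxes upstream, had -1.61 in buds and 5.12 in flowers. AT1G15330, AT1G13670 and LSH5 had 6, 21 and 34 counts over the 3 WT flower libraries and entered the flower test only with counts from triple mutant flowers.

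In the quintuple mutant 2 members were likewise called lower in buds and higher in flowers without overlap, again with no test of the difference between tissues. ERF12 had log2 fold changes over WT of -1.54 in buds and 2.25 in flowers, and LFY had -1.94 in buds and 1.91 in flowers.

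In sink leaves, which were tested in no comparison between genotypes, the summed CPM of the 183 members averaged 1469.86 in quintuple mutant sink leaves, between 1214 and 1702, 917 in triple mutant sink leaves, between 858 and 979, and 946 in WT sink leaves, between 834 and 1016. The quintuple mutant values lay above the others. The WT sink leaf values were among those that chose the members, which had to be low there, and no test was run on these sums.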

How the results depend on the processing

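Counts of members called higher and lower moved by over 1.5 times under some settings, and the cause was not tested. In triple mutant against WT buds all 9 libraries of the tissue gave 0 higher and 0 lower, and in triple mutant against WT flowers 8 and 1. In quintuple mutant against WT buds DESeq2 gave 31 and 35 and all 9 libraries 28 and 29. In quintuple against triple mutant buds DESeq2 gave 63 and 39 and all 9 libraries 59 and 37. With 1 library left out, the higher members numbered 9 to 22 and the lower 29 to 40 in triple mutant buds, 0 to 47 and 0 to 74 in quintuple mutant buds, 17 to 35 and 3 to 8 in triple mutant flowers, and 74 to 108 and 2 to 12 in quintuple mutant flowers, all against WT. Between the mutants they numbered 0 to 72 and 0 to 78 in buds, and 49 to 81 and 0 to 3 in flowers. Buds against flowers gave 174 to 180 and 0 to 1 in the triple and 62 to 97 and 2 to 9 in the quintuple mutant. No call of a named gene turned its direction. Over all settings and comparisons such calls held 4435 times and were lost 648 times, but comparisons differed. With 1 library left out they held 640 times and were lost 8 times in triple mutant buds against flowers. The same counts were 379 and 47 in quintuple mutant against WT flowers, and 11 and 43 in quintuple mutant against WT buds. They were 23 and 115 in quintuple against triple mutant buds. In triple mutant against WT buds all 9 libraries gave 0 held and 41 lost. Named genes without a call in the main fit were not followed in this way. Correlations of the deviations of same-numbered libraries lay between -0.39 and 0.28 over the 8 comparisons. Both signs occurred in each but triple mutant against WT buds, where all were negative (-0.39 to -0.17). With so few libraries in a group, these values cannot settle whether replicate numbers pair libraries. With a replicate block the higher and lower members were 7 and 23 in triple mutant buds and 5 and 0 in quintuple against triple mutant buds, 1 member was lower in quintuple mutant buds against WT, and 1 was lower in quintuple against triple mutant flowers. An 8-fold rule left 78 members, TMM-scaled CPM 128, and the rule without WT library 1, 2 or 3 gave 205, 183 and 178, of which 180, 168 and 166 were among the 183.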
